A study of Mus musculus with 6 samples.

Results

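Amino acid and peptide transporters were described here as 41 genes of 8 solute carrier (SLC) families, out of 18448 genes in the deposited table. They were chosen by symbol alone, as members of families 1, 3, 6, 7, 15, 36, 38 and 43. The creatine transporter gene Slc6a8 was left out, 39 symbols ended in a plain number, and the neighbouring paralogues Slc6a20a and Slc6a20b were taken as 2 further members. The opposite-strand transcripts Slc6a19os and Slc7a6os were not members.

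Poly(A) RNA was sequenced from C57BL/6 mouse jejunal organoids, which are epithelial cultures grown from the small intestine. All 6 libraries came from organoids of the genotype Villin-CreERT2; Hnf4aflox/flox, in which a Cre recombinase driven by the villin promoter, an epithelial promoter, becomes active with tamoxifen and can delete Hnf4a, the gene of a nuclear receptor of the intestinal epithelium. The first group (4OHT, n = 3) were exposed to 0.5 µM 4-hydroxytamoxifen, the active form of tamoxifen, and the control group (DMSO, n = 3) to the vehicle. The treatment lasted 24 h, and both groups then received recombinant Wnt3A at 200 ng/mL and were harvested at day 2 after the last passage. No group without Cre was used here, so an effect of 4-hydroxytamoxifen or of Cre itself cannot be told apart from that of Hnf4a loss. The labels do not say that replicates came from separate animals or organoid lines, so the tests cover only how far these libraries vary, which may be technical variation.

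Dietary protein reaches the enterocyte as free amino acids and as short peptides, which brush border peptidases release at the cell surface. Apical carriers take them up with sodium, with protons or by exchange, and basolateral carriers pass amino acids on to the blood. Several exchangers are heteromers of a heavy chain, which brings the complex to the membrane, and a light chain, which carries the substrate. Other members of these families supply the cell itself with amino acids in almost every tissue, and a subset of them is induced by the transcription factor ATF4 when amino acids are short.

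The promoters of 2 apical partners, Slc3a1 and Slc7a9, and of the basolateral light chain gene Slc7a7 held the letters CAAAGNCCA, a core of the HNF4 binding motif. They are shown because their genes encode the carriers of cationic amino acids and cystine at the apical and basolateral side, and because Hnf4a was the gene targeted. The sequences are from RefSeq (GRCm38.p6), 5′ to 3′ on the strand of the gene, with the motif in capitals on whichever strand it lies. For Slc3a1 (chr17:85028097-85028346, + strand) and Slc7a7 (chr14:54409473-54409722, - strand, upstream of 1 of its start sites) the 250 bases before the start are given. For Slc7a9 (chr7:35448955-35448984, + strand) only 30 bases are given, since annotated exons overlapped the longer window. These 30 bases lie inside the annotated span of the gene (35448796 to 35466036). The Slc7a7 window also lies inside its gene (54369442 to 54417780).
Slc3a1: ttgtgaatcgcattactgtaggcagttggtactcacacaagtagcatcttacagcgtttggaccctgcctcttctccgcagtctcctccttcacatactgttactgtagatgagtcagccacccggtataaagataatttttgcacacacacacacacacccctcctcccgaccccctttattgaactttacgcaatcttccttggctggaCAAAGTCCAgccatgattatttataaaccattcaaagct
Slc7a9: ggtgtctatcTGGGCTTTGttgcctagaag
Slc7a7: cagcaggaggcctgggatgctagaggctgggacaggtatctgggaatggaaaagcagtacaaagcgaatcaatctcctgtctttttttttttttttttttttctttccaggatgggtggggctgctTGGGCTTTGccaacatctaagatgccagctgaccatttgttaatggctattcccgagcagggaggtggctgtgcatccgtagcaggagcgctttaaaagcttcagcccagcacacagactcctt

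In Slc3a1 the match was the full CAAAGTCCA and began 39 bases before the start. Promoter windows were found for 30 of the 41 members, 41 windows in all. CAAAGNCCA on either strand was in the 250 upstream bases of 4 of these 41 windows (3 genes) and in 557 of 32851 mouse windows, or 1.7%. Slc7a9 had overlapping windows that held the same site, which was counted in each of them. CAAAGTCCA was in 1 member window and in 0.384% of all windows, and the shorter CAAAGTCC in 1 and in 1.2%. In all, 11 overlapping motifs were searched on both strands after the values were seen. A direct repeat of nuclear receptors and a motif of HNF1 were in none of the member windows (0.0335% and 0.0609% of all). The CDX motifs TTTATNG and TTTATGG were in 2 and 1 (9.81% and 2.43% of all). The GATA motif AGATAA was in 4 (9.99%) and the TATA motif TATAAA in 4 (12.4%). The ATF4 core TGATGCAA was in 2 member windows, of Slc7a11 and Slc7a7 (0.791% of all), and the looser TGATGNAA in 3 (3.45%). These matches describe letters in these windows and not binding.

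Library totals ran from 31537100 to 40276242 counts, and the 41 members together held between 0.255% and 0.262% of the counts of each library. A level is given in CPM, which scales counts to a TMM-adjusted library size and compares libraries but not genes. TPM, used between genes, divides by the merged exon length first. Stromal, immune and endothelial markers were near the floor. Of 16 listed, 7 had a row, and they summed to at most 7.60, 5.001 and 0.478 CPM, most of it Vim and Cd68. The enterocyte marker Vil1 was between 701 and 927 CPM. Hnf4a was at 436, 424 and 482 CPM in the 4OHT libraries and at 840, 846 and 1021 CPM in the DMSO libraries, with no overlap (log2 fold change -1.01, edgeR adjusted p = 0.0124).
Replicate 3 stood apart in DMSO. Its counts differed from those of DMSO replicates 1 and 2 with a chi-square of 70.7 and 64.5 per degree of freedom, beside 8.55 between replicates 1 and 2. It was 17.1, 18.6 and 34.6 between pairs of 4OHT libraries. For many results that depend on replicate 3, values without it are given beside them.

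A small number of these carriers made up most of the transcripts. Per length, 6 of the 41 members averaged at least 100 TPM over the 6 libraries, 24 at least 10 TPM, and 9 less than 1 TPM. The highest was Slc1a5, a sodium-dependent exchanger of glutamine and other neutral amino acids, at 164 ± 17.1 TPM in 4OHT and 157 ± 13.0 TPM in DMSO (SD, n = 3 each). Slc3a2, the heavy chain of most exchangers in the basolateral membrane, was at 155 ± 4.26 TPM in 4OHT and 150 ± 6.12 TPM in DMSO. Slc6a6, the taurine transporter, was at 141 ± 10.8 TPM in 4OHT and 146 ± 5.01 TPM in DMSO. These 3 lay within each other's spread in the DMSO libraries. Slc38a2, a sodium-coupled carrier of small neutral amino acids, came next with 136 ± 3.44 TPM in 4OHT and 122 ± 11.05 TPM in DMSO. Slc7a5 (120 ± 22.9 in 4OHT, 99.9 ± 24.1 in DMSO) and Slc7a7 (116 ± 7.70 in 4OHT, 103 ± 4.70 in DMSO) followed and did not differ beyond their spread. The first 10 members held 75.3% of the summed TPM of all 41.

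The 8 genes listed here as apical uptake carriers, a list without Slc1a5 and Slc6a6, were lower on this scale. The highest of them was Slc3a1, at 59.0 ± 16.8 TPM in 4OHT and 79.0 ± 34.0 TPM in DMSO. Its light chain partner Slc7a9 was at 32.7 ± 7.94 TPM in 4OHT and 49.4 ± 8.06 TPM in DMSO. Slc6a19 was at 12.2 ± 5.02 TPM in 4OHT and 28.1 ± 16.8 TPM in DMSO, and Slc15a1 at 8.81 ± 1.83 TPM in 4OHT and 13.98 ± 1.018 TPM in DMSO. Slc1a1 was at 4.26 ± 0.614 TPM in 4OHT and 10.7 ± 3.06 TPM in DMSO.

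**Figure D1:**
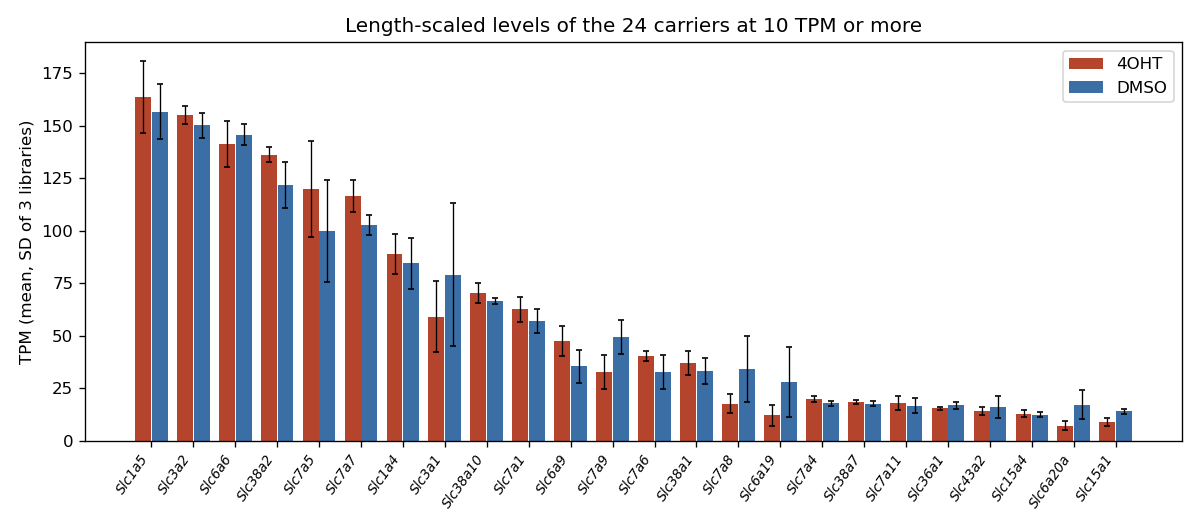
Mean TPM (y axis, linear from 0) of the 24 members that averaged 10 TPM or more, with 4OHT and DMSO side by side and bars of 1 SD over 3 libraries. The 6 members above 100 TPM are Slc1a5, Slc3a2, Slc6a6, Slc38a2, Slc7a5 and Slc7a7, and Slc15a1 closes the row at 11.4 TPM over all 6 libraries.

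With replicate numbers as a block, 5 of the 7 tested genes of the apical list and the basolateral Slc7a8 fell in the 4OHT libraries. In the same fit Slc7a5 rose. The apical Slc3a1 and Slc36a1 did not pass. The labels do not say that libraries of equal number are pairs. Without a replicate term none of the 36 tested members passed the edgeR quasi-likelihood test, where 132 of 14544 genes did (0.908%, with 0.701% higher and 0.206% lower). The smallest adjusted p among members was 0.0561. At an unadjusted p under 0.05 there were 7 lower and 2 higher, beside 6.35% and 8.65% of all tested genes (15% in either direction). DESeq2 called 3 lower (Slc15a1, Slc1a1 and Slc6a20a) and 0 higher, beside 1.83% and 3.41% (5.24% in either direction). With the replicate number as a block, 6 members fell and 1 rose. These were 16.7% and 2.78% of the 36, beside 3% and 3.99% of all tested genes, or 6.99% in either direction. At an unadjusted p under 0.05 the block fit had 11 lower and 7 higher, beside 12% and 13.3% (25.3% in either direction). The 6 that fell were Slc1a1, Slc6a20a, Slc6a19, Slc7a8, Slc15a1 and Slc7a9, and the 1 that rose was Slc7a5. Block fits that leave out a replicate number have few libraries, so their p-values rest largely on variation pooled across genes. They show dependence on single replicates and are not separate support. Without replicate 3 of both groups the block fit gave 9 lower and 5 higher of 38, beside 8.16% and 10.1% (18.3% in either direction). Without replicate 1 it gave 9 lower and 0 higher of 37, beside 2.47% and 1.87% (4.35% in either direction). Without replicate 2 only Slc6a20a passed, lower, of 36, beside 0.0685% lower and 0.233% higher among all genes (0.301% in either direction). The median log2 fold change was -0.011 for the 36 members and -0.0041 for all tested genes, with 18 members below and 18 above 0, and 17 members lay within 0.2 of 0.

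**Figure D2:**
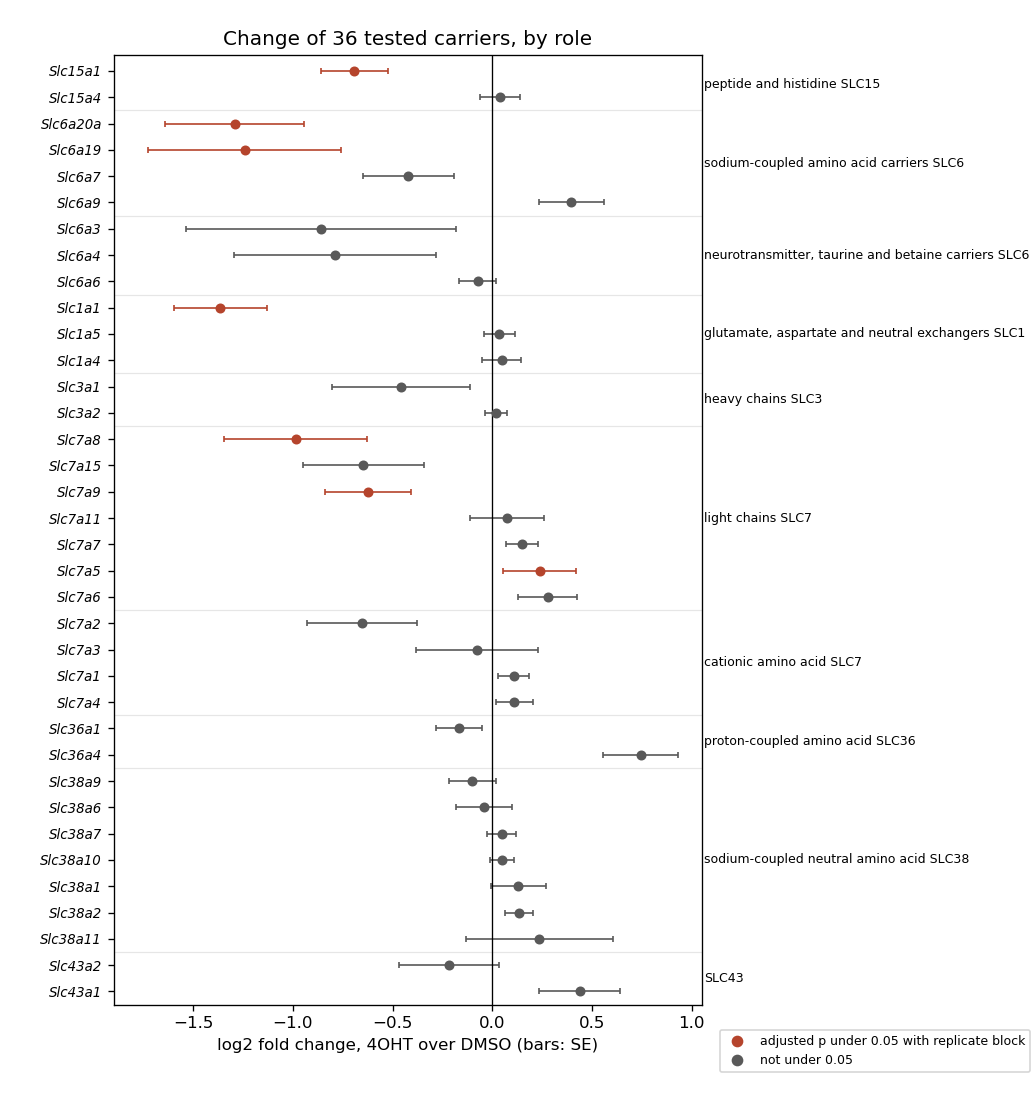
Log2 fold change of 4OHT over DMSO (x axis) with its standard error for the 36 tested members, in rows grouped by role, in red where the adjusted p was under 0.05 with the replicate block. Slc1a1, Slc6a20a and Slc6a19 lie beyond -1, while the SLC38 row stays between -0.10 and 0.24.

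Peptide uptake runs through Slc15a1, the proton-coupled carrier of dipeptides and tripeptides. Its gene (ENSMUSG00000025557, chromosome 14 from 121459621 to 121505252, GRCm38) measured 13.1, 10.3 and 16.3 CPM in 4OHT replicates 1 to 3, against 22.1, 19.1 and 23.1 CPM in DMSO. Every 4OHT library was below every DMSO library, and replicate 3 was highest in both groups. The log2 fold change was -0.69 (SE 0.169, edgeR adjusted p = 0.12), and with the block Slc15a1 fell by 0.71 (SE 0.0929, adjusted p = 0.0184). By DESeq2 it passed as well (adjusted p = 0.00666). With the block it was lost without replicate 2 of both groups (0.0939) and kept without replicate 1 (0.0452) or 3 (6.1e-07). Slc15a4, a lysosomal carrier of histidine and peptides, was at 21.1 ± 2.26 CPM in 4OHT and 20.5 ± 1.32 CPM in DMSO (log2 fold change 0.04, adjusted p = 0.895). Slc15a3, of the same lysosomal branch, had only 18, 11 and 8 counts in 4OHT and 10, 9 and 7 counts in DMSO and was not tested.

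The sodium-coupled apical carriers of the SLC6 family had larger differences. Slc6a19 encodes the main carrier of neutral amino acids in the small intestine. It measured 17.9, 11.3 and 27.5 CPM in 4OHT, against 31.54, 25.2 and 77.8 CPM in DMSO. The groups overlapped, since 4OHT replicate 3 was above DMSO replicate 2, but within each number the 4OHT library was lower. The log2 fold change of Slc6a19 was -1.24 (SE 0.485, edgeR adjusted p = 0.296), and -1.17 with the block (SE 0.129, adjusted p = 0.0132). DMSO replicate 3 weighed on this value: without it the log2 fold change was -0.59 in the fit without a block (adjusted p = 0.43).
Slc6a20a encodes a carrier of proline and other imino acids (ENSMUSG00000036814, chromosome 9 from 123634770 to 123678885). It measured 8.76, 6.32 and 12.2 CPM in 4OHT, against 18.8, 14.8 and 33.4 CPM in DMSO. The groups did not overlap. Slc6a20a fell with the block (log2 fold change -1.27, SE 0.0936, edgeR adjusted p = 0.00581), and in edgeR it missed the threshold without it (-1.29, adjusted p = 0.15). By DESeq2, fitted without a block, Slc6a20a passed (adjusted p = 0.003). In the smaller block fits the edgeR adjusted p of Slc6a20a was 0.0104 without replicate 1 of both groups. It was 0.0367 without replicate 2 and 3.48e-08 without replicate 3.
Its neighbour Slc6a20b, a close paralogue, had 5, 4 and 3 counts in 4OHT and 10, 16 and 21 counts in DMSO and was below the filter. Reads could be shared between the paralogues, and exons of Slc6a20a, like those of Slc1a1 and Slc6a9, also overlap genes on the opposite strand. In the authors' deposited table Slc6a20b had a log2 fold change of -2.04 with an edgeR adjusted p of 0.0081.

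Slc1a1, the sodium-dependent carrier of glutamate and aspartate, had the lowest log2 fold change among the 36 tested members with all 6 libraries. In the block fit that left out replicate 3 on both sides, Slc6a20a was lower (-1.16, against -1.001 for Slc1a1). The Slc1a1 gene (ENSMUSG00000024935) spans bases 28835049 to 28913960 of chromosome 19. Slc1a1 was at 10.5, 12.3 and 9.59 CPM in the 4OHT libraries, against 20.2, 25.2 and 37.9 CPM in the DMSO libraries. The groups did not overlap. Slc1a1 was lowest in 4OHT replicate 3 and highest in DMSO replicate 3. Slc1a1 was 2.57-fold lower (log2 fold change -1.36, SE 0.233, edgeR adjusted p = 0.0561). It fell with the block (-1.33, SE 0.207, adjusted p = 0.0253), in DESeq2 (adjusted p = 8.39e-07), with library totals alone (0.0491) and without DMSO replicate 3 (-1.08, 0.0164). With the block the call was lost without replicate 2 of both groups (0.0746). The other family members Slc1a4, a carrier of serine and alanine, and Slc1a5 were close to their DMSO level. Slc1a4 was at 107 ± 9.31 CPM in 4OHT and 104 ± 11.1 CPM in DMSO (0.05, adjusted p = 0.871), and Slc1a5 at 209 ± 18.5 CPM in 4OHT and 205 ± 9.17 CPM in DMSO (0.03, adjusted p = 0.884).

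The apical heteromer of Slc3a1 and Slc7a9, whose promoters are shown above, takes up cystine and cationic amino acids, and mutations of its human genes cause cystinuria. Slc7a9 (chromosome 7 from 35448796 to 35466036) measured 26.7, 20.1 and 34.2 CPM in 4OHT, against 38.7, 34.9 and 51.3 CPM in DMSO. The 4OHT libraries all lay below the DMSO libraries. Slc7a9 fell with the block (log2 fold change -0.64, SE 0.068, edgeR adjusted p = 0.0123) and missed the threshold without it (-0.62, 0.242). Without replicate 2 of both groups the block p was 0.0698.
The heavy chain Slc3a1 (chromosome 17 from 85028376 to 85064236) measured 37.7, 30.8 and 55.5 CPM in 4OHT, against 44.1, 38.8 and 88.0 CPM in DMSO. The groups overlapped through replicate 3, although the 4OHT library was lower within each number. With the block Slc3a1 missed the threshold (log2 fold change -0.41, SE 0.0905, edgeR adjusted p = 0.0547), and it passed without replicate 3 (-0.28, adjusted p = 0.00161) or 1 (-0.51, 0.0454) of both groups. Without the block Slc3a1 was at -0.46 (adjusted p = 0.593), and at -0.0058 (0.993) when DMSO replicate 3 was left out. The ratio of Slc7a9 to Slc3a1 in TPM was 0.601, 0.553 and 0.523 in 4OHT, against 0.746, 0.764 and 0.494 in DMSO, so that DMSO replicate 3 had the lowest ratio of all 6 libraries. Exons of Slc3a1 overlap those of Prepl on the opposite strand, and the strand setting of the counts is not given in the sources used here.

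Slc36a1, a proton-coupled carrier of small amino acids in the apical and lysosomal membrane, was at 26.7 ± 1.99 CPM in 4OHT and 30.01 ± 4.22 CPM in DMSO (log2 fold change -0.17, edgeR adjusted p = 0.543, and 0.174 with the block). Without DMSO replicate 3 Slc36a1 was at -0.056. Slc6a14, a broad carrier of neutral and cationic amino acids, was near the floor, with 2, 1 and 4 counts in 4OHT and 3, 0 and 1 counts in DMSO. Of the 8 listed apical carriers, 7 were tested. With the block 5 of them fell, beside 3% of all tested genes. Without replicate 1 of both groups 6 did so, beside 2.47%, and without replicate 3 also 6, beside 8.16%. Without replicate 2 only Slc6a20a did, beside 0.0685%. All 7 log2 fold changes were below 0 (median -0.69), as were 7395 of the 14544 tested genes. The 4OHT libraries summed to 141, 116 and 184 CPM over the 8 genes, against 204, 185 and 346 CPM in DMSO, so the highest 4OHT library lay just under the lowest DMSO library.

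**Figure D3:**
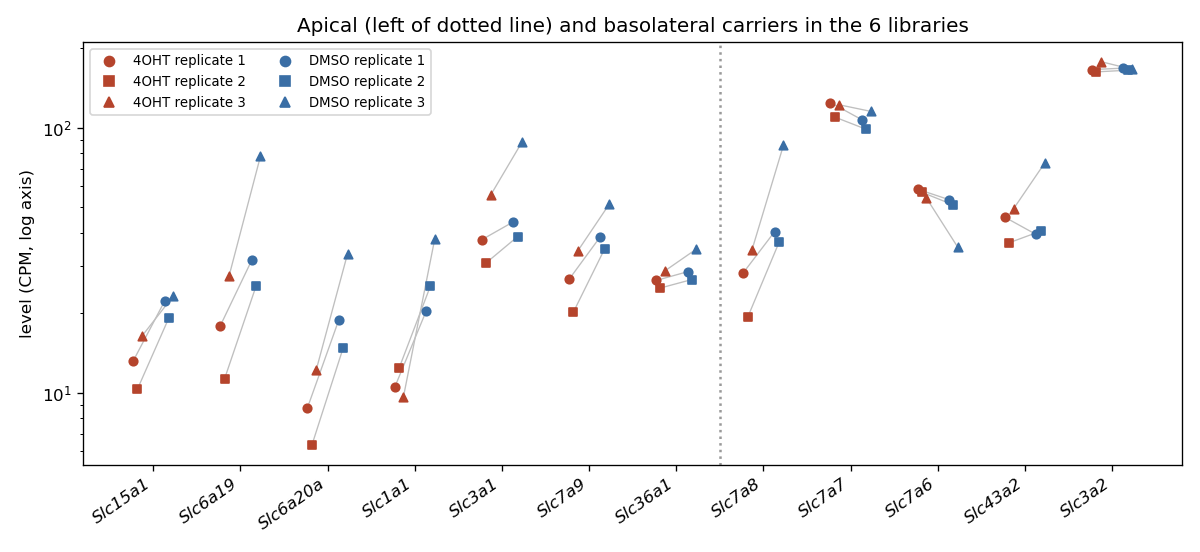
Level in CPM (log axis) of the 7 tested apical carriers, left of the dotted line, and 5 basolateral carriers in each library, 4OHT left of DMSO, with lines joining libraries of the same replicate number. All lines of the apical carriers run upward to DMSO, and among the basolateral genes only those of Slc7a8 do so in all 3 pairs.

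The basolateral side differed from gene to gene. Slc7a8, a light chain that exchanges neutral amino acids, measured 28.3, 19.2 and 34.6 CPM in 4OHT, against 40.5, 36.9 and 85.6 CPM in DMSO. Slc7a8 showed no overlap of the groups and fell with the block (log2 fold change -0.93, SE 0.145, edgeR adjusted p = 0.0253), but not without it (-0.99, 0.264), and with the block it was lost without replicate 2 (0.102). Leaving out DMSO replicate 3 gave -0.50 without a block.
Slc7a7, the basolateral exporter of cationic amino acids that is mutated in human lysinuric protein intolerance, measured 124, 110 and 122 CPM in 4OHT, against 107, 98.5 and 115 CPM in DMSO. It was higher within each number and missed the threshold (0.15, adjusted p = 0.432, and 0.109 with the block), and it passed with the block without replicate 3 (0.00638). Its exons overlap those of Oxa1l on the opposite strand. Slc7a6, a further exporter of cationic amino acids, was at 56.6 ± 2.16 CPM in 4OHT and 46.6 ± 9.81 CPM in DMSO, with no overlap (0.28, adjusted p = 0.438, and 0.142 with the block).
Slc43a2, a facilitative carrier of branched-chain amino acids, was at 44.0 ± 6.51 CPM in 4OHT and 51.3 ± 19.4 CPM in DMSO (-0.22, adjusted p = 0.737), and its sign turned to 0.13 without DMSO replicate 3. The heavy chain Slc3a2 was at 168 ± 7.99 CPM in 4OHT and 166 ± 1.51 CPM in DMSO (0.02, adjusted p = 0.901), with a sign that turned without replicate 3. Of these 5 basolateral genes, 1 fell and 0 rose with the block, beside 3% and 3.99% of all tested genes.

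Light chains that share the heavy chain Slc3a2 differed in direction. Per Slc3a2 in TPM, Slc7a8 stood at 0.121, 0.0835 and 0.137 in 4OHT, against 0.170, 0.158 and 0.364 in DMSO. Slc7a5, an exchanger of large neutral amino acids that is abundant in proliferating cells, stood at 0.802, 0.927 and 0.595 in 4OHT, against 0.708, 0.771 and 0.507 in DMSO. In CPM Slc7a5 was at 139, 158 and 111 in 4OHT, against 125, 133 and 88.3 in DMSO. The groups overlapped and replicate 3 was lowest in both. Slc7a5 rose with the block (log2 fold change 0.24, SE 0.0483, edgeR adjusted p = 0.0436) and missed the threshold without it (0.598). The block call was lost without replicate 1 (0.0801) or 2 (0.232) of both groups.
Slc7a11, the exchanger of cystine for glutamate, was at 59.4, 80.9 and 89.6 CPM in 4OHT and at 78.8, 82.5 and 57.1 CPM in DMSO. It was lower after 4OHT in replicates 1 and 2 and higher in replicate 3 (0.07, adjusted p = 0.893). With the block and without replicate 3 Slc7a11 fell (-0.22, adjusted p = 0.0155). Slc7a15, a mouse gene related to the light chains, was at 1.30 ± 0.444 CPM in 4OHT and 2.03 ± 0.551 CPM in DMSO (-0.65, adjusted p = 0.38).

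Of 10 tested carriers known to respond to ATF4, 1 rose with the block (Slc7a5) and 0 fell, and 0 were called without it (1 at an unadjusted p under 0.05). Among all tested genes the block fit called 3.99% higher and 3% lower, and the fit without it 0.908% in either direction. Their log2 fold changes were above 0 in 9 of 10, beside 7149 of 14544 tested genes, and Slc3a2 and Slc7a11 turned below 0 without replicate 3 of both groups. The log2 fold changes ran from -0.08 to 0.44 with a median of 0.09 and edgeR adjusted p between 0.313 and 0.935. Without replicate 3 of both groups the block fit called 3 higher (Slc6a9, Slc43a1 and Slc7a5) and 1 lower (Slc7a11). Among all tested genes that fit called 10.1% higher and 8.16% lower. Slc6a9, the glycine transporter, measured 84.4, 62.4 and 78.1 CPM in 4OHT, against 68.1, 56.3 and 46.5 CPM in DMSO. Slc6a9 was higher within each number, and its log2 fold change of 0.40 missed the threshold (adjusted p = 0.313, and 0.0938 with the block). Slc43a1, a carrier of large neutral amino acids, was at 5.34 ± 1.22 CPM in 4OHT and 3.94 ± 0.503 CPM in DMSO (0.44, adjusted p = 0.376). Slc6a9 and Slc43a1 passed with the block without replicate 3 (0.00284 and 0.00964). Slc7a1, the main arginine and lysine carrier of most cells, was at 222 ± 16.1 CPM in 4OHT and 206 ± 13.0 CPM in DMSO (0.11, adjusted p = 0.573). Slc7a3, a cationic carrier, was under 1 CPM in all libraries.

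Of the 8 sodium-coupled SLC38 carriers, whose substrates include glutamine and alanine, 7 were tested, 0 were called by edgeR with or without the block, 0 by DESeq2 and 0 at an unadjusted p under 0.05 without the block. With the block Slc38a1 had an unadjusted p of 0.022 (adjusted p = 0.125). Their log2 fold changes ran from -0.10 to 0.24. Slc38a2 was at 361, 359 and 390 CPM in 4OHT and at 361, 330 and 321 CPM in DMSO (0.13, adjusted p = 0.426). Slc38a1 was at 196 ± 26.2 CPM in 4OHT and 179 ± 27.2 CPM in DMSO (0.13, adjusted p = 0.715, and 0.0029 on the log2 scale without DMSO replicate 3). Slc38a9, the lysosomal arginine sensor of mTORC1, was at 11.2 ± 1.01 CPM in 4OHT and 11.97 ± 1.28 CPM in DMSO (-0.10, adjusted p = 0.74). Slc38a10 was at 139 ± 7.99 CPM in 4OHT and 134 ± 3.25 CPM in DMSO (0.05, adjusted p = 0.751). Slc38a7, a lysosomal glutamine carrier, was at 23.7 ± 0.918 CPM in 4OHT and 22.9 ± 1.23 CPM in DMSO. Slc38a6 and Slc38a11 were at 5.47 ± 0.52 and 0.87 ± 0.352 CPM in 4OHT and at 5.63 ± 0.686 and 0.747 ± 0.207 CPM in DMSO. Slc38a3, a glutamine carrier of liver and brain, had 1, 7 and 8 counts in 4OHT and 11, 19 and 2 counts in DMSO and was not tested here. It passed the filter when replicate 3 of both groups was left out, and the block fit then called it lower.

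Cationic carriers and the carriers of neurotransmitters and taurine did not pass the test with all 6 libraries. Slc7a2, an arginine carrier, was at 4.38, 4.30 and 2.62 CPM in 4OHT and at 4.17, 7.35 and 6.24 CPM in DMSO (-0.65, edgeR adjusted p = 0.329, and 0.182 with the block). Slc7a4, a relative without a firmly known substrate, was at 25.2 ± 1.23 CPM in 4OHT and 23.4 ± 2.495 CPM in DMSO (0.11, adjusted p = 0.642), and with the block and without replicate 3 of both groups it passed (0.23, adjusted p = 0.0305). Slc6a6 was at 367 ± 34.99 CPM in 4OHT and 387 ± 28.2 CPM in DMSO (-0.07, adjusted p = 0.755). Slc6a4, the serotonin transporter, was at 9.48, 5.11 and 11.7 CPM in 4OHT and at 8.31, 9.66 and 27.6 CPM in DMSO, where replicate 3 stood far above the others. Its log2 fold change of -0.79 (SE 0.508, adjusted p = 0.522) shrank to -0.04 without that library. With the block and without replicate 1 of both groups, Slc6a4 and Slc7a2 passed (0.0173 and 0.0486). Slc6a3, the dopamine transporter, was at or below 0.453 CPM in all libraries except DMSO replicate 3 (1.30 CPM). Slc6a7, a proline carrier known from brain, was at 5.38, 5.06 and 4.66 CPM in 4OHT and at 5.86, 5.14 and 9.26 CPM in DMSO (-0.42, adjusted p = 0.444). Slc6a7 was at -0.08 with the block when replicate 3 was left out of both groups (adjusted p = 0.757). Slc36a4, of the same family as Slc36a1, was at 1.23, 1.15 and 1.36 CPM in 4OHT, against 0.667, 0.789 and 0.780 CPM in DMSO, with no overlap (0.74, SE 0.187, adjusted p = 0.127, and 0.0884 with the block).

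Over all 36 tested members, 5 lay lower and 2 higher in 4OHT with no overlap between the groups, beside 10.1% and 12.5% of all tested genes (22.6% in either direction). That is 13.9% and 5.56% of the members. Within the 3 numbered pairs, 11 members were lower in all 3 and 11 higher in all 3, beside 24.5% and 25.3% of all tested genes (49.8% in either direction). The authors' deposited table had 7 of the 41 members at an edgeR adjusted p under 0.05, all lower, where 1.23% of its genes were called lower, 2.42% higher and 3.65% in either direction. In the authors' deposited table these were the 6 members that fell with the block here and Slc6a20b. By its DESeq column Slc15a1 alone passed (adjusted p = 0.012), where 0.331% of genes were called lower, 1.3% higher and 1.63% in either direction.

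Replicate 3 was compared with replicates 1 and 2 of the same group. Of the 7 tested genes of the apical list, 6 were higher in 4OHT replicate 3 and all 7 in DMSO replicate 3. Over the 36 members this held for 19 in 4OHT and 21 in DMSO. The difference of log2 CPM between replicate 3 and the mean of replicates 1 and 2 was 0.95 in 4OHT and 1.46 in DMSO for Slc6a19. It was 0.70 in 4OHT and 1.09 in DMSO for Slc3a1, and 0.70 in 4OHT and 1.001 in DMSO for Slc6a20a. The basolateral Slc7a8 had 0.57 in 4OHT and 1.15 in DMSO. Slc1a1 went opposite ways, at -0.24 in 4OHT and 0.75 in DMSO. Slc7a5 (-0.42 in 4OHT, -0.55 in DMSO) and Slc38a1 (-0.34 in 4OHT, -0.40 in DMSO) were lower in replicate 3. Medians over the 7 apical carriers were 0.56 in 4OHT and 0.75 in DMSO, beside 0.07 and 0.17 for the 36 members and -0.0015 and 0.00037 for all tested genes. These differences describe single libraries and were not tested.

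**Figure D4:**
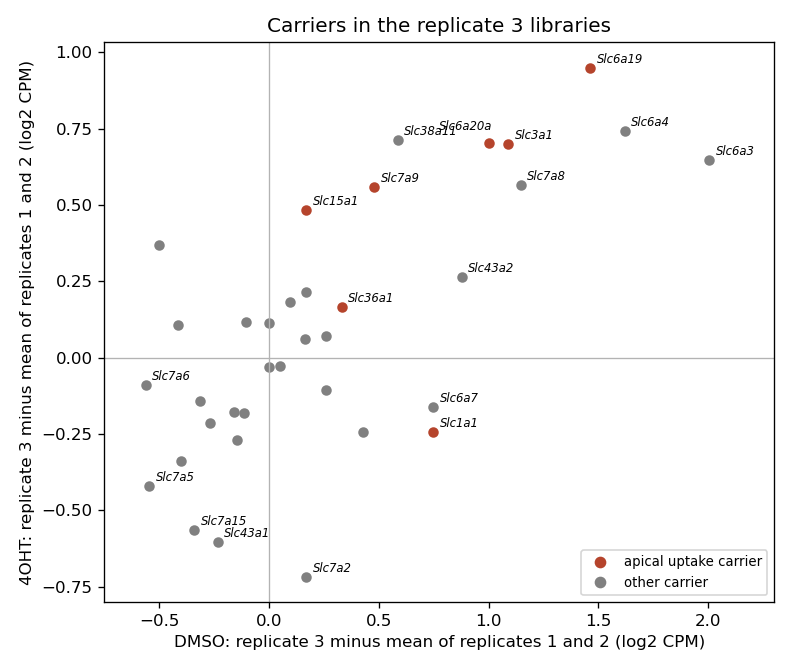
Difference of log2 CPM between replicate 3 and the mean of replicates 1 and 2 in DMSO (x axis) and in 4OHT (y axis) for the 36 tested members, with apical carriers in red. Slc6a19, Slc3a1 and Slc6a20a lie at the upper right, and Slc1a1 is the 1 listed apical carrier below 0 in 4OHT.

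Genes that work with the apical carriers were set beside them. Of 11 tested brush border peptidases, 9 fell and 0 rose with the block, beside 3% and 3.99% of all tested genes. All 11 had a negative log2 fold change, and the median was -0.71. Without the block edgeR called 0 of them (6 at an unadjusted p under 0.05). Without replicate 3 of both groups 10 of 11 fell with the block, beside 8.16% of all tested genes. Without replicate 2 of both groups 0 did, beside 0.0685%. Those that fell with the block included the glutamyl aminopeptidase gene Enpep (log2 fold change -0.69, adjusted p = 0.00863), Dpep1 (-0.80, 0.0132), Naaladl1 (-0.85, 0.017), Mep1b (-0.59, 0.0212) and Ggt1 (-0.997, 0.022), and also Dpp4 (-0.67, 0.033), Ace (-0.40, 0.0426) and Xpnpep2 (-0.60, 0.0494). Anpep, the aminopeptidase N gene (0.0634), and Mep1a (0.248) did not pass. In the smaller block fits Anpep passed without replicate 3 (0.000233) or 1 (0.014) of both groups, and not without replicate 2 (0.22).
Among 6 tested accessory genes 2 fell with the block, among them the scaffold gene Pdzk1 (-0.83, adjusted p = 0.0379). Without the block edgeR called 0 of the 6 (3 at an unadjusted p under 0.05). The block fit called 0 without replicate 2 of both groups and 4, all lower, without replicate 1 or 3. Of all tested genes these fits called 0.0685%, 2.47% and 8.16% lower without replicate 2, 1 and 3. The sodium-proton exchanger Slc9a3, which maintains the proton gradient that Slc15a1 uses, was at 9.88, 5.84 and 9.74 CPM in 4OHT, against 11.3, 10.3 and 18.1 CPM in DMSO (-0.63, block adjusted p = 0.0671). Slc16a10, a basolateral carrier of aromatic amino acids, was at 33.3, 28.4 and 35.2 CPM in 4OHT, against 39.9, 37.5 and 64.9 CPM in DMSO (-0.52, block adjusted p = 0.0615). In the block fit without replicate 3 of both groups, Slc9a3 (-0.48, adjusted p = 0.0104) and Slc16a10 (-0.34, 0.000472) passed. Both passed without replicate 1 (0.0264 and 0.0444), and neither did without replicate 2 (0.262 and 0.162).

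Genes of amino acid shortage and sensing were tested in the same fits. With the block 3.99% of all tested genes were called higher and 3% lower (6.99% in either direction). Of 14 tested ATF4 pathway genes, the asparagine synthetase gene Asns rose with the block (log2 fold change 0.30, edgeR adjusted p = 0.0253) and Aldh18a1, of proline synthesis, fell (-0.40, adjusted p = 0.0448). Asns was at 204, 228 and 191 CPM in 4OHT, against 176, 180 and 149 CPM in DMSO, with no overlap. Aldh18a1 was at 341, 304 and 287 CPM in 4OHT, against 404, 384 and 445 CPM in DMSO. The list had a median of 0.04. The glutathione-degrading gene Chac1 (block adjusted p = 0.366) and Sesn2 (0.243) missed the threshold. Of 14 tested genes of amino acid sensing by mTORC1, Fnip2 rose (0.36, 0.0414) and Tm4sf5 fell (-0.42, 0.018) with the block, and of 8 genes of glutathione synthesis 0 passed in edgeR with it (1 at an unadjusted p under 0.05). Without the block edgeR called 0 in each of these 3 lists, with 2, 1 and 0 at an unadjusted p under 0.05. Without replicate 2 of both groups the block fit called 0 in each.

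Markers of cell types were also set beside the carriers. Of all tested genes the block fit called 3% lower and 3.99% higher, and edgeR without a block 0.206% and 0.701%. The block fit called 2.47% lower and 1.87% higher without replicate 1 of both groups. It called 0.0685% and 0.233% without replicate 2, and 8.16% and 10.1% without replicate 3. All 12 enterocyte markers had log2 fold changes below 0 (median -0.53), as had 7395 of the 14544 tested genes. With the block 3 of the 12 fell, among them Fabp2 and Apoa1. Summed over the 12, the level was 5131, 3763 and 6693 CPM in 4OHT, against 6043, 5428 and 11913 CPM in DMSO, with none at 0. Without replicate 3 of both groups 11 of the 12 fell with the block, without replicate 1 of both groups 7 and without replicate 2 of both groups 0 did, and without the block edgeR called 0 (3 at an unadjusted p under 0.05). Of 8 goblet cell markers 6 rose with the block, with summed levels of 3642 to 6162 CPM in 4OHT, against 2248 to 4228 CPM in DMSO. Without the block edgeR called 0 of the 8 (3 at an unadjusted p under 0.05), and the block fit called 3 without replicate 1 of both groups, Clca1 and Zg16 without replicate 2, and all 8 without replicate 3. Of 6 tested gastric or squamous markers all 6 rose with the block, with summed levels of 339 to 461 CPM in 4OHT, against 54.3 to 88.6 CPM in DMSO. Without the block 5 of the 6 rose, and without replicate 2 of both groups the block fit called Tff1 and Ivl. Among stem cell markers 2 of 9 fell with the block (Axin2 and Msi1), among Paneth markers Nupr1 rose and Lyz1 fell, and Chga and Avil rose among enteroendocrine and tuft markers. Without replicate 2 of both groups only Msi1 and Nupr1 of these 6 passed with the block. In edgeR without a block Msi1 (adjusted p = 0.0455), Lyz1 (0.0318) and Nupr1 (0.00944) passed. Of the 9 stem cell markers 8 had log2 fold changes below 0 (median -0.33). Without replicate 3 of both groups 6 of these 9 fell with the block. Of 10 proliferation markers 0 passed with the block in edgeR, with adjusted p between 0.113 and 0.969 and 3 at an unadjusted p under 0.05. In such bulk libraries fewer enterocytes and less carrier RNA per enterocyte cannot be told apart, and the part of these markers in the carrier results was not tested.

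**Figure D5:**
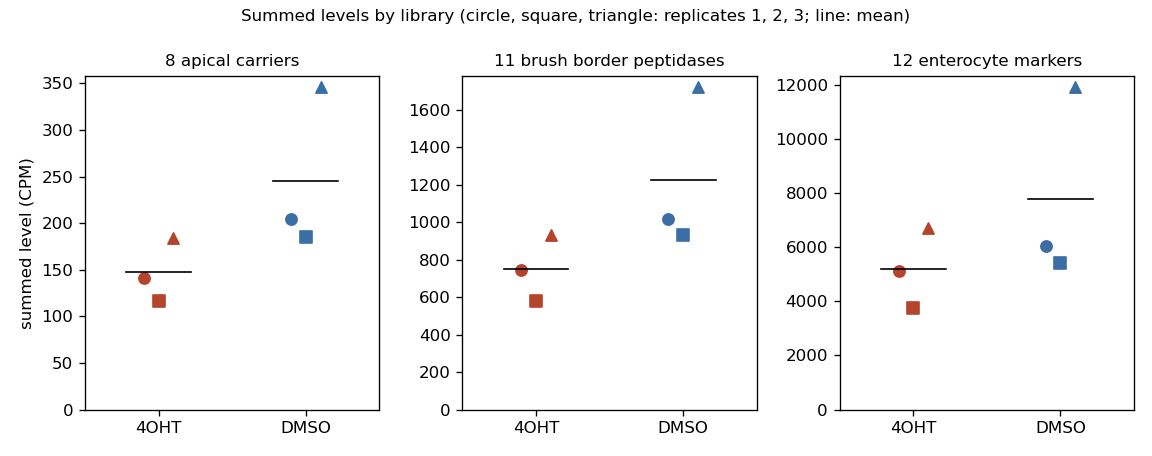
Summed CPM (y axes from 0, each with its own range) of the 8 apical carriers, 11 brush border peptidases and 12 enterocyte markers in each library, with symbols for replicates 1, 2 and 3 and a line at the mean. In all 3 panels DMSO replicate 3 is highest, and 4OHT replicate 3 is highest of its group.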

How the data were processed

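Per the labels' protocols, poly(A)-selected libraries were made with a directional kit. STAR 2.4.0f1, bcl2fastq 1.8.4 and GRCm38 were named, per the submitters' processing notes, and the counting program and its strand setting are not given in the sources used here. The authors deposited raw counts per gene for 6 libraries, per the file headers, which were used for every test. The deposited normalised score, from the values a scaled and rounded count, was not used. The deposited log2 fold change and adjusted p-value columns were only set beside the results, and genes under 10 counts in total were not in the table.

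The count analysis used edgeR 4.0.16 under R 4.3.3: filterByExpr (14544 genes kept), TMM scaling, the quasi-likelihood F test of 4OHT against DMSO, two-sided p-values adjusted over all tested genes by Benjamini-Hochberg, and calls at an adjusted p under 0.05. Adjusted p-values are edgeR's where no tool is named. SE is the absolute log2 fold change over the square root of F. DESeq2 1.42.0, other scalings, no filter, the replicate block and left-out libraries were alternatives. The fit recovered known changes in counts simulated with a fixed dispersion and without a replicate effect or an outlying library. The simulation therefore does not cover a library that stands apart, such as DMSO replicate 3. TPM used merged exon lengths of GENCODE M21 on GRCm38, which held 18351 of the identifiers and all 41 members.

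Replicate numbers occur in both groups. Libraries of the same number deviated together from their group means (r = 0.30, 0.33 and 0.43 across genes for replicates 1, 2 and 3). The numbers were therefore treated as pairs. This pairing comes from the same data that were then tested, and not from the labels. Correlations between different numbers were not set beside these, and every call with the block rests on the pairing. The members, lists and fits were chosen with earlier results of these data known. Members named were those called with or without the block, the listed apical, basolateral and ATF4-responsive carriers, the 10 highest in TPM, and the 5 largest and smallest log2 fold changes (from 1 CPM) and replicate 3 differences. Other named members and the motifs were chosen after their values were seen. Values of 1 untested member and of 1 gene of the other lists are not reported here.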

Additional observations from a re-analysis of the deposited data

How the results depend on the processing

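The count of genes called was 132 without a replicate block and 1017 with it. It was 762 by DESeq2, 601 without replicate 3 of both groups, and between 4 (without DMSO replicate 2) and 340 (without DMSO replicate 3) when 1 library was left out. With the block it was 638, 44 and 2678 without replicate 1, 2 or 3 of both groups, a set of fits added after the data were seen. The count of members called was 0, and 7 with the replicate block. It was 1 with library totals alone (Slc1a1), 3 by DESeq2, 4 without replicate 3 of both groups, and 0 to 1 when 1 library was left out. With the block it was 9, 1 and 14 without replicate 1, 2 or 3 of both groups. DESeq2 size factors and no filter on low counts gave 0 members.

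Of 405 recomputed log2 fold changes of 27 members, 24 turned sign, in 8 members, none under another scaling, filter or tool. With 1 library left out the value ran from -0.044 to 0.11 for Slc1a4, -0.036 to 0.092 for Slc1a5, -0.0059 to 0.085 for Slc38a10, -0.019 to 0.046 for Slc3a2, -0.38 to 0.13 for Slc43a2, -1.28 to 0.20 for Slc6a3, -0.080 to 0.22 for Slc7a11 and -0.31 to 0.060 for Slc7a3. Without replicate 3 of both groups it was -0.026 for Slc3a2, 0.038 for Slc43a2, -0.21 for Slc7a11 and 0.15 for Slc7a3, and with the block too it was -0.026, 0.032, -0.22 and 0.16. With the block, Slc1a5 had -0.018 without replicate 2 and Slc7a3 0.14 without replicate 1. The causes were not tested.

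With 3 libraries a group, no member reached the threshold in the edgeR fit with TMM scaling and without a block. That does not show that levels were equal. Members with few counts were not tested, and counts of members with an opposite-strand gene or a close paralogue are uncertain.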
